A study of Sus scrofa with 36 samples.

Results

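Small nucleolar RNAs (snoRNAs) were followed in pig heart tissue taken 1, 3, 7 and 28 days after birth (P1, P3, P7 and P28). Of 206 genes with the biotype snoRNA in the gene count table, 110 reached 10 counts in 3 or more of 12 libraries and were analysed, among 5526 genes that passed the same filter. The libraries were those sequenced by CD Genomics (cd), total RNA depleted of ribosomal RNA from the hearts of domestic Yorkshire pigs, with 3 libraries at each age. The animals were fed normally, and age was the only difference between groups that the labels give. The other 96 snoRNA genes comprised 54 with no count in any library and 42 with too few counts. At the threshold, 3 genes were kept with exactly 3 libraries of 10 counts and had 83 to 85 counts over all libraries, and 7 genes with 2 such libraries were left out and had 52 to 76 counts.

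snoRNAs are short nuclear RNAs that pair with other RNAs and direct their chemical modification in the nucleolus, where ribosomes are assembled. Those with box C/D motifs direct methylation of the ribose and those with box H/ACA motifs direct pseudouridylation, mainly of ribosomal RNA, while a few, among them SNORA73 and SNORD22, act in the cleavage of the ribosomal RNA precursor instead. In vertebrates most are not transcribed alone but are trimmed out of introns of longer host genes, many of which code for ribosomal proteins or translation factors or for noncoding RNAs whose introns carry the functional product.

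The analysed genes were 63 to 204 bases long, with a median of 91. The table and its gene identifiers named 55 of them, 37 of the box C/D class and 18 of the box H/ACA class, and gave no name for the other 55. The gene count table held genes of chromosomes 1, 2, 6 and 13 only, and 26, 31, 35 and 18 of the snoRNA genes lay on these. Numbers of genes, shares of counts and summed levels given here therefore cover these chromosomes and not the whole genome. All 110 lay within a longer gene, for 94 of them one of the table and for the others one named by RefSeq (Sscrofa11.1) alone. Genes coding for ribosomal proteins enclosed 32 snoRNA genes, translation factors 11, long noncoding RNAs 18 and other genes 49. Many shared an enclosing gene: 24 of the 58 enclosing genes held 2 or more, and 76 snoRNA genes lay in these. A pair of unnamed genes in CNOT1 (ENSSSCG00000018522 and ENSSSCG00000033096) overlapped at the same place and had equal counts in 11 of the 12 libraries, so that a read can be counted for more than 1 gene. The table gives the ends of a gene and not its exons, and reads of a mature snoRNA were not told apart from reads of the unspliced transcript around it.

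The libraries had 8887176 to 14883849 gene counts, of which the snoRNA genes held 12102 to 27031, or 0.121% to 0.213%. RNA of the signal recognition particle, which the table lists as Metazoa_SRP, took 7.09% to 19.7%. The cardiac muscle markers were high in every library, with a sum of 69256 to 92201 CPM over 7 genes, where CPM is a gene's count scaled to the library's total of gene counts after TMM normalization. Levels of most snoRNA genes were low. The median gene had a median count of 26.8 per library, 63 of the 110 had a median under 30, and 1 count was worth 0.0665 to 0.118 CPM. The coefficient of variation between the 3 libraries of an age had a median over the snoRNA genes of 22.5% at P1, 32.8% at P3, 22.4% at P7 and 21.7% at P28, beside 19.0% to 21.8% that counting alone gives at their mean counts. At P3, library 5, the shallowest of all, was lowest of the 12 libraries for 38 snoRNA genes. Its median deviation from a gene's mean over all libraries was -0.52 on the log2 scale for the 64 genes of 63 to 111 bases and -0.03 for the 46 genes of 126 to 204 bases.

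A few genes held most of the snoRNA signal. Per kilobase of gene, the mean CPM over the 12 libraries ran from 4.49 to 2703, with a median of 20.4. The 6 genes with the highest mean CPM took 81.4% of the summed snoRNA CPM and were also the 6 highest per kilobase. First was SNORA73 (ENSSSCG00000037630; chromosome 6, 85534254 to 85534457), an H/ACA snoRNA of ribosomal RNA precursor cleavage, at 2703 CPM per kilobase. Its neighbour of the same name (ENSSSCG00000034185; chromosome 6, 85535474 to 85535677) followed SNORD97, at 1230, and both lay in the noncoding RNA gene LOC100621455. SNORD97 in EIF4G2, a translation initiation factor gene, was second at 1878. SNORA74 in MATR3, the gene of a nuclear RNA-binding protein, followed at 644, then SNORD22 in the noncoding RNA gene LOC100627892 at 556 and SNORA63 in EIF4A2, a translation initiation helicase gene, at 374. The next gene was an unnamed one in EIF4A2 at 112 CPM per kilobase. All 6 highest genes were among the 46 longer ones, of 126 to 204 bases. These 46 had a mean sum of 1475 CPM at P1, and the 64 shorter genes one of 148 CPM. Whether the libraries captured short genes less well was not tested, and levels per kilobase are not corrected for it.

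The summed level of all 110 genes was highest at P28. It was 1765, 1471 and 1633 CPM in the P1 libraries, 1748, 1430 and 1324 at P3, 1470, 1058 and 1643 at P7, and 1789, 2226 and 1856 at P28. The 3 P28 libraries were thus above the other 9, the lowest of them by a narrow margin over the highest of P1. With scaling by library totals alone, P28 library 4, at 1718 CPM, was below P3 library 4, at 1820.4. The mean sum at P28 was 1.21 times that at P1, and those at P3 and P7 were 0.925 and 0.857 times that at P1. Without P7 library 5 the mean at P7 was 1556 CPM, 0.959 times that at P1, and so above the mean at P3, 1501 CPM. Without the 6 highest genes the sum was 296 ± 18.6 CPM at P1, 285 ± 34.1 at P3, 259.5 ± 23.2 at P7 and 364 ± 27.8 at P28 (SD, n = 3), again with no overlap between P28 and the rest. In bulk tissue, a change in the share of a cell type and a change in the amount of RNA per cell cannot be told apart.

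**Figure D1:**
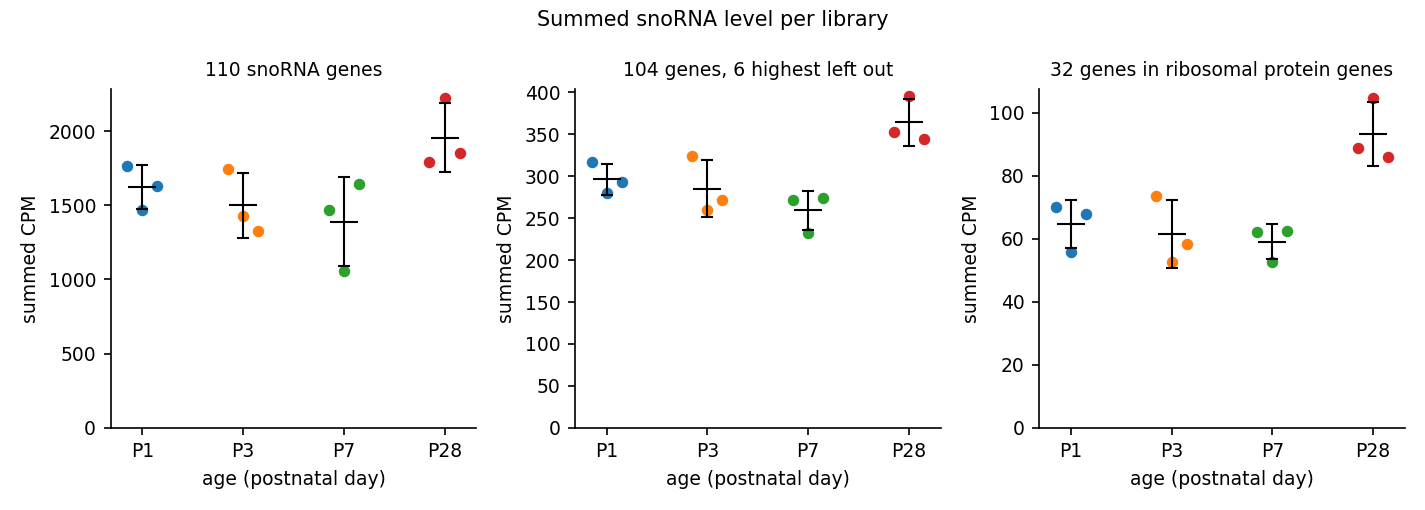
Summed CPM (vertical axis, from 0) by age (horizontal axis) of all 110 snoRNA genes, of 104 without the 6 highest, and of the 32 that lie in ribosomal protein genes. Points are the 3 libraries of an age, horizontal bars the mean and vertical bars the SD. In each panel the P28 libraries lie above those of the other ages, from 1789 CPM upward for all 110 genes.

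The mean CPM of 71 snoRNA genes (64.5%) was highest at P28, against 32.3% of all 5526 genes, and 8 snoRNA genes (7.27%) had their lowest mean at P28, against 33.7% of all genes. The lowest mean fell at P7 for 48 snoRNA genes (43.6%, against 22.6% of all genes) and at P3 for 32. Over the 110 genes the median log2 fold change was -0.00 between P1 and P3, -0.13 between P1 and P7 and 0.31 between P1 and P28, where the medians of all genes tested were 0.01, -0.01 and 0.00.

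**Figure D2:**
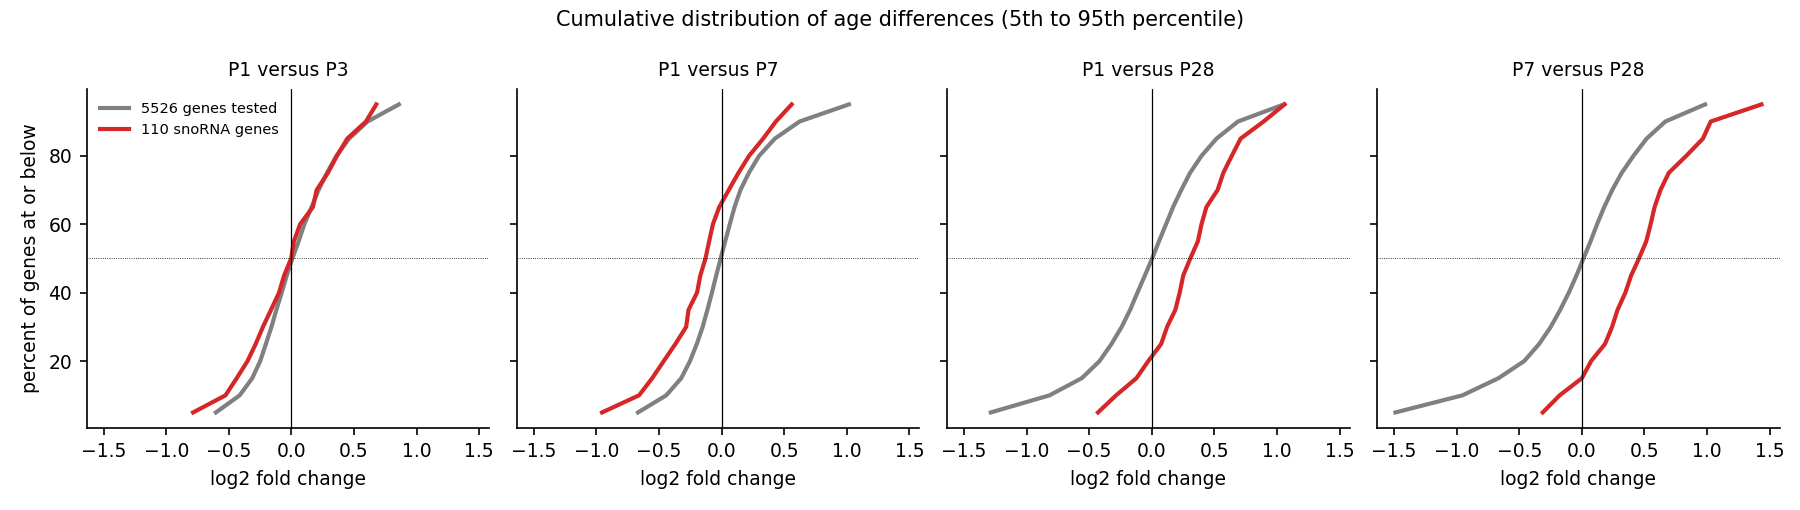
Percent of genes (vertical axis) at or below a log2 fold change (horizontal axis), from the 5th to the 95th percentile, for the 110 snoRNA genes (red) and all 5526 genes tested (grey). Positive values are higher at the later age. The curves lie close together for P1 versus P3, and for P1 versus P28 and P7 versus P28 that of the snoRNA genes is displaced to higher values, with a median of 0.31 for P1 versus P28.

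The comparison of P1 with P28 asked which snoRNA genes differed between the newborn and the older heart. With edgeR's quasi-likelihood test, 16 of 110 snoRNA genes (14.5%) were called, and all 16 were higher at P28. A call required both a log2 fold change beyond 0.5 in either direction and a p of at most 0.05 before adjustment. Over all genes tested 23.1% were called, 11.0% higher and 12.1% lower at P28. The share called higher was thus near that of all genes, and the difference lay in the lower direction, where no snoRNA gene was called. After Benjamini-Hochberg adjustment over all genes 2 snoRNA genes passed 0.05, SNORA74 and 1 copy of SNORD18, where 15.3% of all genes did. Of the 110 genes, 85 (77.3%) had a positive fold change, against 50.3% of all genes. The P28 libraries were all above the P1 libraries for 28 genes (25.5%, against 22.5% of all) and all below for 1, SNORD31 (0.909%, against 21.9% of all). The number called fell to 3 without P1 library 5, to 10 without P1 library 6 and to 9 without P28 library 5. P1 library 5 was the lowest of its age for 51 of the 110 genes. With the number in the column names as a block, 14 snoRNA genes were called higher, 12 of them among the 16. Of the 110 genes, 5 passed the count filter only with the P28 libraries, and 1 of these was called.

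SNORA74 (ENSSSCG00000018891; chromosome 2, 141183235 to 141183434) had the smallest p. It measured 140, 87.7 and 123 CPM at P1, 115, 116 and 102 at P3, 104, 110 and 97.1 at P7 and 197, 183 and 172 at P28. All P28 libraries were above all others, and the first 3 ages overlapped. The log2 fold change from P1 to P28 was 0.66 ± 0.15 (SE; edgeR adjusted p = 0.0143). Without P1 library 5, its lowest, the fold change was 0.48, which is under the threshold. MATR3 around it measured 876 to 976 CPM at P1 and 963 to 1053 at P28, a log2 fold change of 0.12 ± 0.16 (adjusted p = 0.660).

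The second was a copy of SNORD18 in RPL4, a gene of the large ribosomal subunit (ENSSSCG00000019809; chromosome 1, 164479480 to 164479550). SNORD18 is a box C/D snoRNA, and this copy measured 0.896, 0.432 and 0.412 CPM at P1, 0.739, 0.354 and 0.625 at P3, 0.988, 0.997 and 0.818 at P7 and 1.36, 1.89 and 1.48 at P28. P28 lay above the other ages, at counts of 15 to 23 per library. The log2 fold change was 1.43 ± 0.40 (edgeR adjusted p = 0.0311), and the call held without any single library. The other 2 copies of SNORD18 in RPL4 had log2 fold changes of 0.26 and 0.56 and were not called, and RPL4 itself was at 0.17 ± 0.15.

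Other snoRNA genes in ribosomal protein genes were also called higher at P28. Both copies of SNORD24 in RPL7A, a box C/D snoRNA of ribosomal RNA methylation, were called. The copy ENSSSCG00000038923 measured 0.373, 0.504 and 0.741 CPM at P1 and 1.60, 1.07 and 1.28 at P28, with a log2 fold change of 1.28 ± 0.43. The copy ENSSSCG00000038338 measured 3.13, 2.30 and 3.46 CPM at P1 and 4.65, 5.02 and 5.32 at P28, with a log2 fold change of 0.75 ± 0.27. P28 lay above P1 in both copies. In RPL7A, SNORD36 (ENSSSCG00000037405) was called as well, at 0.52 ± 0.23. SNORD34 in RPL13A measured 4.93, 5.33 and 7.33 CPM at P1 and 6.90, 11.4 and 8.97 at P28, where the ages overlap, with a log2 fold change of 0.64 ± 0.29 and an unadjusted edgeR p of 0.0488. That call was lost when 1 library was left out for 8 of the 12 libraries.

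Outside ribosomal protein genes, the calls at P28 fell on both classes of snoRNA. SNORD19, a box C/D snoRNA in GNL3, which codes for a nucleolar GTPase, measured 1.19, 0.576 and 0.494 CPM at P1 and 2.49, 1.65 and 2.07 at P28, with no overlap. Its log2 fold change was 1.44 ± 0.50 (edgeR adjusted p = 0.0689), and the call was lost without P1 library 5 or 6. The other 2 snoRNA genes in GNL3, which are unnamed, were positive too, down to 0.68, and not called. An unnamed gene in EIF4A2 (ENSSSCG00000018746) measured 8.58, 6.48 and 6.18 CPM at P1, 6.02, 3.79 and 5.89 at P7 and 10.03, 15.4 and 9.56 at P28. This gene was lowest at P7 and highest at P28, without overlap between P28 and the 2 other ages given, with a log2 fold change from P1 of 0.72 ± 0.26 and an adjusted any-age p of 0.0281. SNORA4, an H/ACA snoRNA in EIF4A2, was called at 0.57 ± 0.25. EIF4A2 was itself called higher, at 0.50 ± 0.17.

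In the noncoding RNA gene LOC100624963, 2 of 3 snoRNA genes were called higher at P28. The unnamed ENSSSCG00000027448 measured 2.84, 1.30 and 2.14 CPM at P1 and 4.01, 4.03 and 5.03 at P28, a log2 fold change of 1.05 ± 0.40. SNORA63 (ENSSSCG00000020700) measured 1.34, 0.720 and 0.741 CPM at P1, 0.359, 0.532 and 0.491 at P7 and 1.69, 2.63 and 1.58 at P28, a log2 fold change of 1.07 ± 0.46. Neither overlapped between P1 and P28, and LOC100624963 was itself called at 0.50 ± 0.23. The last 2 calls with the 12 smallest p were unnamed genes of few counts. ENSSSCG00000020625 in SLC25A33, the gene of a mitochondrial nucleotide carrier, had 2 to 12 counts at P1 and 13 to 19 at P28 (log2 fold change 1.57 ± 0.64). Its fold change was 2.69 without P1 library 4 and 1.21 without P1 library 6, and the call was lost in 4 of the 12 fits that left out 1 library. It reached 10 counts in only 1 library of the other ages, so that it passed the count filter only through P28, the age at which it was high. ENSSSCG00000018774 in TNPO2, which codes for a nuclear import receptor, had a log2 fold change of 1.09 ± 0.46, and its P28 libraries, at 0.963, 1.40 and 0.591 CPM, overlapped with P1, at 0.373, 0.288 and 0.741. Of the 14 genes that the naming rule gave and that were called higher at P28, 3 kept the call without any single library, among them SNORD18 and SNORD24 (ENSSSCG00000038923). Without P1 library 5 these 3 were the only snoRNA genes still called. The gene in EIF4A2 (ENSSSCG00000018746) and SNORA63 (ENSSSCG00000020700) also lost the call without P1 library 6 or P28 library 5, and the gene ENSSSCG00000027448 without P28 library 6. Under the other processing settings 10 of the 14 kept the call. The gene in TNPO2 lost it in 4 of 9 settings, SNORD34 in 3 of 10, SNORA63 in 2 of 9 and the gene in SLC25A33 in 1 of 9. The replicate block was among these settings for the first 3, at unadjusted edgeR p of 0.0556, 0.0541 and 0.0509.

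**Figure D3:**
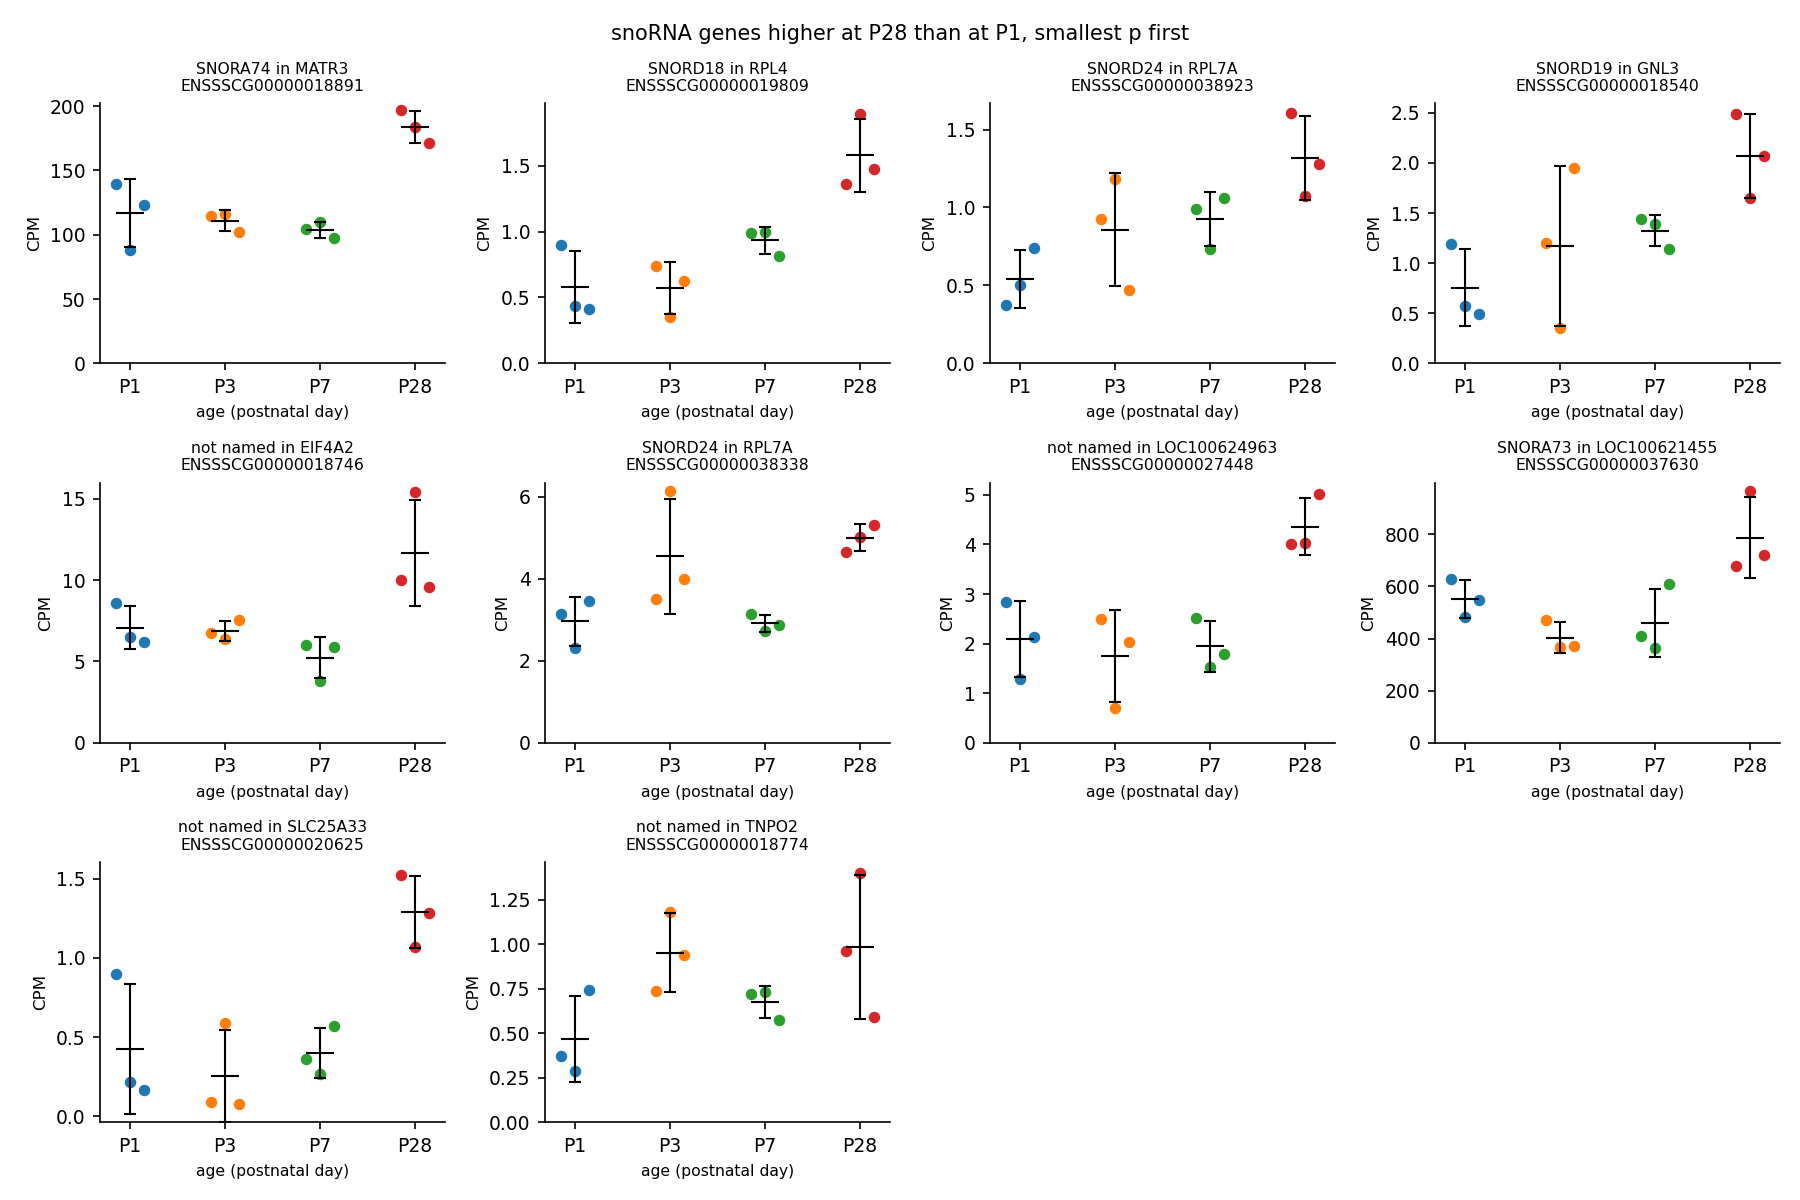
CPM (vertical axes, each including 0) by age of 10 of the 12 snoRNA genes with the smallest p among those called higher at P28 than at P1, each titled with its enclosing gene. Points are libraries, horizontal bars the mean and vertical bars the SD of 3. P28 lies above P1 without overlap in 9 of the 10 panels, and SNORA74, at 172 to 197 CPM at P28, shows similar levels at P1, P3 and P7.

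The 2 SNORA73 genes shared a host and a name and differed in pattern. ENSSSCG00000037630 measured 630, 483 and 547 CPM at P1, 471, 368 and 370 at P3, 409, 364 and 609 at P7 and 677, 966 and 721 at P28, and was called higher at P28 at a log2 fold change of 0.51 ± 0.20. ENSSSCG00000034185 measured 263, 210 and 249 CPM at P1, 362, 348 and 258 at P3, 287, 155 and 242 at P7 and 327, 181 and 132 at P28, and was not called (-0.17 ± 0.29). The first gene was highest at P28, with an any-age adjusted p of 0.0166 in edgeR, and the second was not. The ratio of the first to the second within a library was 2.40, 2.31 and 2.20 at P1, 1.30, 1.06 and 1.44 at P3, 1.43, 2.35 and 2.51 at P7 and 2.07, 5.35 and 5.46 at P28. It was lower in all P3 libraries than in all P1 libraries and varied more among the libraries of P7 and of P28. The call of the first gene was lost without P1 library 5 or 6 or without P28 library 5. How reads that match both copies were assigned is not given in the sources used here, so the split between them is uncertain.

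Unlike SNORA74, the abundant genes SNORD97, SNORD22 (ENSSSCG00000029549) and SNORA63 in EIF4A2 (ENSSSCG00000019309) were not called in any comparison with P1. At some ages they varied between libraries by more than counting gives. SNORD97, a box C/D snoRNA, measured 290, 284 and 276 CPM at P1, and 171, 356 and 368 at P28, where its coefficient of variation was 37.0% and counting gave 1.72%. SNORD22 measured 64.6, 74.1 and 91.1 CPM at P1 and 26.8, 72.3 and 66.8 at P28. SNORA63 in EIF4A2 measured 61.7, 52.7 and 53.9 CPM at P1, 46.2, 22.9 and 50.1 at P7 and 38.4, 72.04 and 52.1 at P28. P28 library 4 was the lowest of its age in all 3 genes and the highest of its age for the second SNORA73 gene, at 327 CPM. The direction of the SNORD97 difference between P1 and P28 (0.07 ± 0.31) and of the SNORA63 difference (-0.05 ± 0.28) each turned when single libraries were left out.

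The comparison of P1 with P3 asked about the first days after birth. Here 9 snoRNA genes were called, 3 higher and 6 lower at P3, against 10.6% of all genes (6.95% higher, 3.64% lower), and none passed after adjustment (0.0543% of all genes), where 10 had an unadjusted edgeR p under 0.05 and 1 passed adjustment in DESeq2. The P3 libraries were all above those of P1 for 6 snoRNA genes (5.45%, against 8.41% of all) and all below for 8 (7.27%, against 7.62%). The number called was 4 without P1 library 5 and 16 without P3 library 4. The smallest p belonged to an unnamed gene in RABGGTB (ENSSSCG00000019181; chromosome 6, 137532913 to 137532991), which codes for a subunit of the enzyme that attaches lipids to Rab proteins. It measured 9.11, 6.70 and 5.93 CPM at P1, 3.97, 2.01 and 2.81 at P3, 8.27, 3.06 and 4.58 at P7 and 8.10, 8.23 and 7.29 at P28. The P3 libraries were below all of P1 and P28, with a log2 fold change from P1 of -1.29 ± 0.36 (edgeR adjusted p = 0.173; any-age adjusted p = 0.0465). SNORD45A in the same gene measured 10.9, 10.5 and 8.57 CPM at P1 and 6.19, 1.65 and 4.92 at P3, also without overlap (log2 fold change -1.21 ± 0.42). SNORD45B, the other one there, was at -0.23 and was not called. The enclosing table row, which RefSeq names RABGGTB and the identifier table MSH4, measured 97.5 to 109 CPM at P1 and 94.6, 47.3 and 91.3 at P3, so that P3 library 5 was low for the gene as well as for its snoRNAs.

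The noncoding RNA gene LOC100627892 held 8 box C/D snoRNA genes, SNORD26 to SNORD31 and 2 named SNORD22, names that recur in the human host gene SNHG1. Of these 8, 3 were called lower at P3: SNORD27 (-0.88 ± 0.37), SNORD29 (-0.79 ± 0.34) and SNORD31 (-0.69 ± 0.31). SNORD31 measured 4.03, 5.62 and 5.77 CPM at P1, 4.34, 2.01 and 3.13 at P3, 3.23, 4.98 and 3.52 at P7 and 3.29, 3.87 and 3.15 at P28. Its P28 libraries were all below those of P1, while P3 overlapped with P1. The host was at -0.27 ± 0.17 from P1 to P3 and was not called. Among the snoRNA genes called higher at P3 were SNORD24 (ENSSSCG00000038338) in RPL7A, at 3.51, 6.14 and 3.99 CPM against 3.13, 2.30 and 3.46 at P1, and unnamed genes in LOC100620498 and NAP1L4 with log2 fold changes of 0.70 ± 0.28 and 0.76 ± 0.29. In each of these 3 the highest P3 value was in library 5.

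Between P1 and P7, 7 snoRNA genes were called, all lower at P7 (6.36%), where 11.7% of all genes were called, 7.65% higher and 4.07% lower. None passed after adjustment (2.01% of all genes), where 7 had an unadjusted edgeR p under 0.05 and 1 passed adjustment in DESeq2. A positive fold change was found for 38 of 110 (34.5%), against 48.8% of all genes. The P7 libraries were all below those of P1 for 15 snoRNA genes (13.6%, against 15.2% of all) and all above for 3 (2.73%, against 15.3%). The number called was 12 without P7 library 6 and 4 without P28 library 6. Of the 7 genes, 1 would not have passed the count filter without the P1 libraries.

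The smallest p at P7 belonged to an unnamed gene of 139 bases in MRPL39, which codes for a mitochondrial ribosomal protein (ENSSSCG00000018244; chromosome 13, 189162975 to 189163113). It measured 7.84, 6.91 and 7.33 CPM at P1, 2.86, 2.84 and 2.11 at P3, 3.41, 0.332 and 0.572 at P7 and 6.18, 6.50 and 7.69 at P28. P3 and P7 were below P1 and P28 in every library, and P1 and P28 overlapped. The log2 fold change from P1 was -1.50 ± 0.55 at P3, -2.40 ± 0.58 at P7 (edgeR adjusted p = 0.0517) and -0.12 ± 0.52 at P28, with an any-age adjusted p of 0.0224. MRPL39 moved less, with log2 fold changes of -0.39 ± 0.15 at P3, -0.40 ± 0.15 at P7 and 0.03 ± 0.14 at P28.

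Among the other 6 genes called lower at P7, an unnamed gene in PIP5K1B, a lipid kinase gene (ENSSSCG00000019243), measured 1.04, 2.09 and 1.65 CPM at P1 and 0.719, 0.199 and 0.572 at P7 (log2 fold change -1.71 ± 0.49). The groups did not overlap. SNORD63 in HSPA9, which codes for a mitochondrial chaperone, was called at -1.16 ± 0.38, an unnamed gene in FGF1, a growth factor gene, at -1.05 ± 0.46, SNORA13 at -0.84 ± 0.38 and SNORD34 at -0.66 ± 0.30. FGF1 was itself called lower at P7, at -0.87 ± 0.17 (adjusted p = 0.0297), and no other enclosing gene of these pairs was called.

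**Figure D4:**
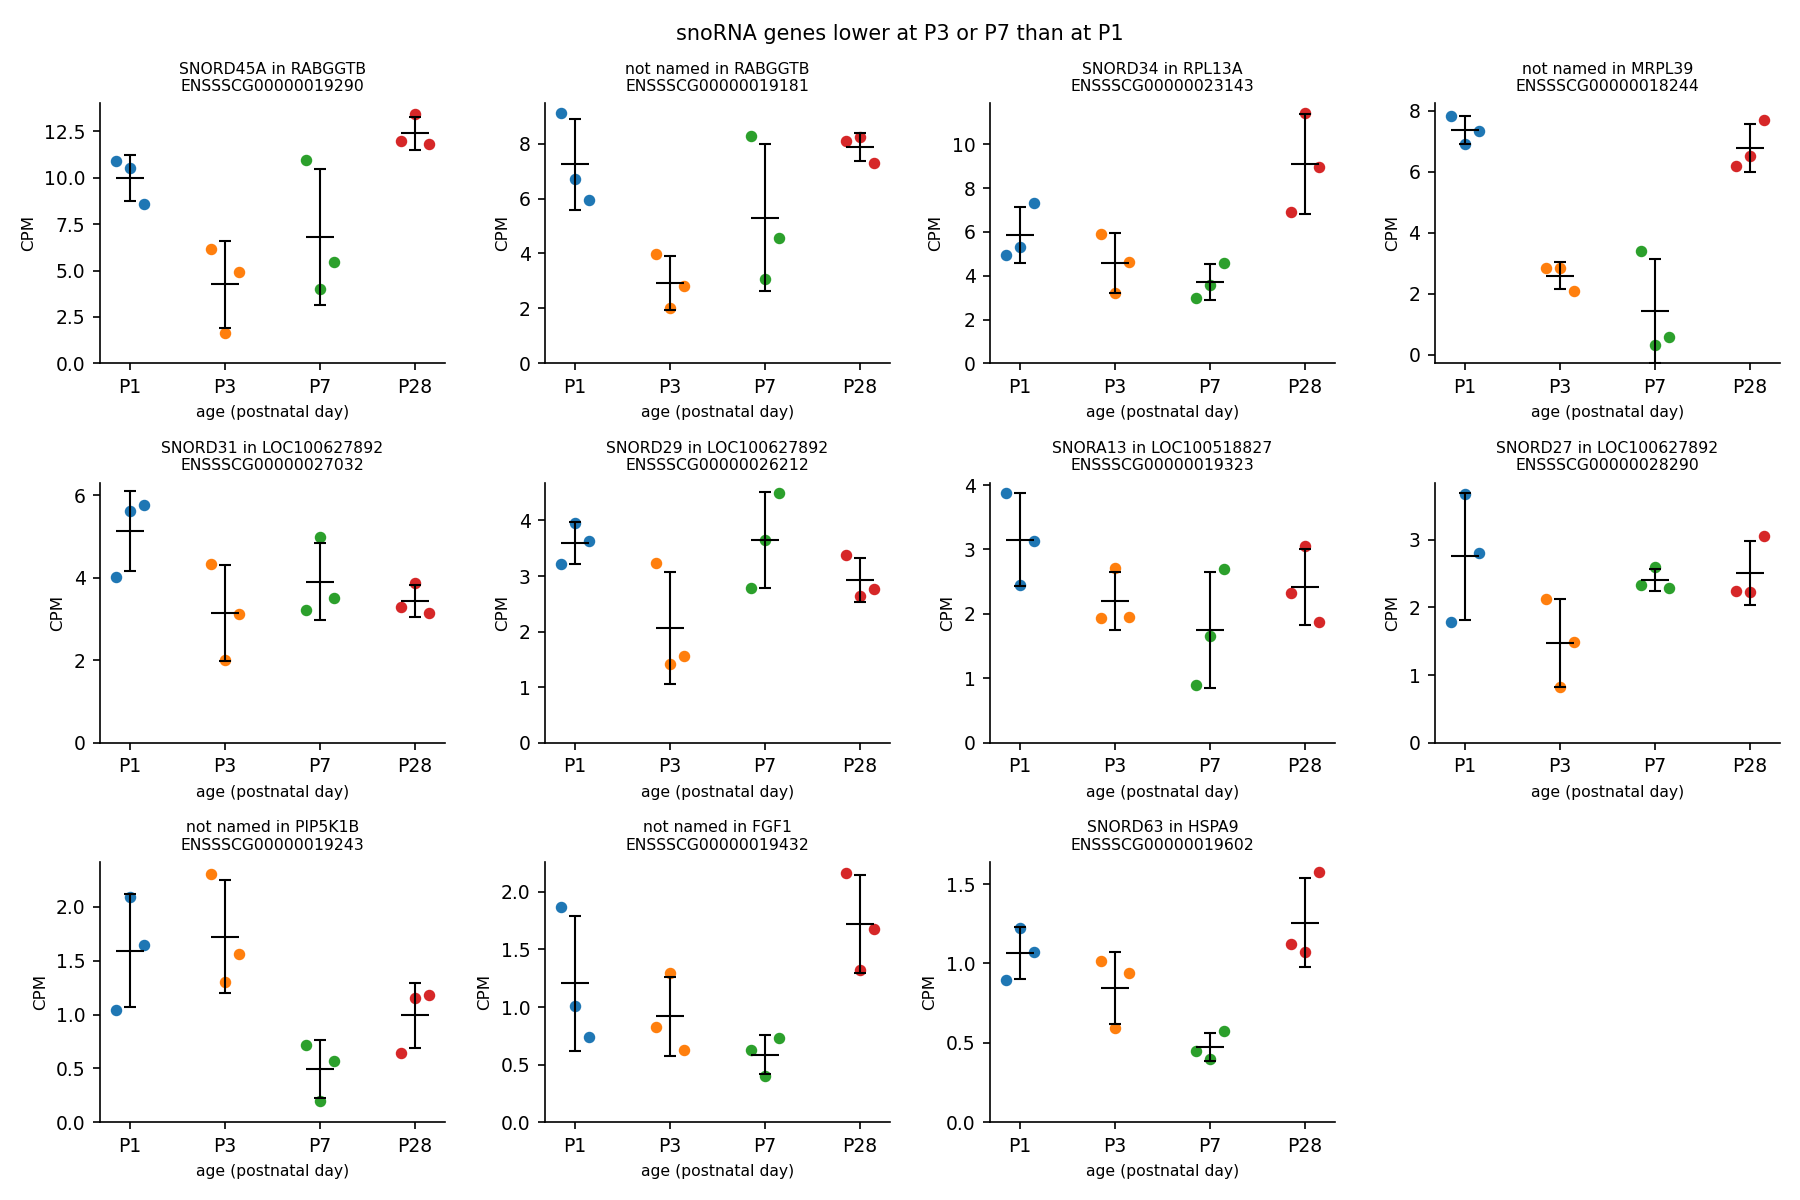
CPM (vertical axes, each including 0) by age of 11 of the 12 snoRNA genes called lower than P1 at P3 or at P7, each titled with its enclosing gene. Points are libraries, horizontal bars the mean and vertical bars the SD of 3. The gene in MRPL39 is at 0.332 to 3.41 CPM at P3 and P7 and at 6.18 to 7.84 CPM at P1 and P28, while SNORD31 overlaps between P28 and P3.

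Against the mean of the 3 later ages, P1 differed in 5 snoRNA genes, 3 higher later and 2 lower, where 9.41% of all genes were called, 4.89% higher and 4.52% lower, and none passed after adjustment, as 2.46% of all genes did (5 at an unadjusted edgeR p under 0.05, and 1 after adjustment in DESeq2). Higher were SNORD24 (ENSSSCG00000038923), SNORD19 and the gene in TNPO2, and lower were the gene in MRPL39 and SNORD31. The number called was 1 without P1 library 5, 2 without P3 library 6 or P28 library 4, 3 without P7 library 5 or P28 library 6, and 8 without P3 library 4. Over the 4 ages together, 8 snoRNA genes had an adjusted p under 0.05 in the any-age test, against 21.4% of all genes. These were SNORA74, SNORD18, SNORA73 and SNORA63 (1 copy of each), SNORD34 and the unnamed genes in EIF4A2, RABGGTB and MRPL39. Their number ranged from 2 without P28 library 5 to 13 without P3 library 4. It was 5 without P1 library 5 or 6, 4 without P7 library 5 or 6 and 3 without P28 library 6.

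P7 was also compared with P28, a comparison chosen after the data were seen. It called 25 snoRNA genes, 24 higher and 1 lower at P28, where 25.1% of all genes were called, 11.1% higher and 14% lower. The adjusted p was under 0.05 for 10 snoRNA genes (9.09%, against 18.8% of all). The P28 libraries were all above those of P7 for 42 snoRNA genes (38.2%, against 23.7% of all) and all below for 1 (0.909%, against 23.3% of all). Besides SNORA74 (0.83 ± 0.16, edgeR adjusted p = 0.00341), SNORA73 (ENSSSCG00000037630), SNORA63 (ENSSSCG00000020700, 2.06 ± 0.50), SNORD34 (1.29 ± 0.30) and the unnamed genes in EIF4A2 and MRPL39, the 10 included SNORD35A in RPL13A (1.03 ± 0.31), SNORD63 (1.39 ± 0.38) and the gene in FGF1 (1.55 ± 0.45), which were named after their values were seen. The number called was 15 without P7 library 5. Of the genes called higher at P28, 3 passed the count filter only with the P28 libraries.

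Of the 32 snoRNA genes in ribosomal protein genes, 31 had a positive log2 fold change from P1 to P28 and 7 were called higher, with a median of 0.53, beside 0.31 over all 110 snoRNA genes. Over all genes tested, 50.3% were positive and 11.0% were called higher. Their summed level was 70.2, 55.9 and 67.9 CPM at P1, 73.8, 52.7 and 58.3 at P3, 62.3, 52.7 and 62.6 at P7 and 88.8, 104.9 and 86.0 at P28. The P28 libraries lay above the other 9. In translation factor genes 10 of 11 were positive, with a median of 0.38 and 2 called. In noncoding RNA genes 11 of 18 were positive, with a median of 0.13 and 3 called, and among the 8 in LOC100627892 it was 3 of 8 with none called. In other genes 33 of 49 were positive, with a median of 0.22 and 4 called. Whether these groups differ was not tested. By class, the median was 0.31 for box C/D (7 of 37 called) and 0.24 for box H/ACA (4 of 18 called), and 0.31 for unnamed genes (5 of 55 called).

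Each snoRNA gene was set beside its enclosing gene, since an intronic snoRNA is cut from its host's transcript. For 89 snoRNA genes in 45 enclosing genes the gene table and RefSeq did not disagree on the enclosing gene, and both were tested in the same fit. From P1 to P28 the median log2 fold change was 0.35 over the 89 snoRNA genes and 0.04 over the 45 enclosing genes. Each enclosing gene was counted once in such medians, however many snoRNA genes it held. A higher fold change than that of the enclosing gene was found for 61 of 89 snoRNA genes. The median difference over all 89 pairs was 0.19, and it was 0.29 without P1 library 4 or without P28 library 4 and 0.11 without P28 library 5. In 11 ribosomal protein genes the 29 snoRNA genes had a median of 0.54 and their hosts 0.04. None of these hosts was called, while 7 of the 29 snoRNA genes were. Over all pairs 15 snoRNA genes were called, and for 5 of them the enclosing gene was called too, in the same direction. From P7 to P28 the medians of snoRNA and enclosing genes were 0.45 and 0.32, with 73 of 89 pairs of the same sign, where it was 57 from P1 to P28, and 14 pairs called in the same direction of 21 snoRNA genes called higher. Across pairs, Pearson's r was 0.28 for P1 versus P28 and 0.60 for P7 versus P28 (Spearman's rho 0.25 and 0.62). These are descriptions, as pairs share enclosing genes and libraries.

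**Figure D5:**
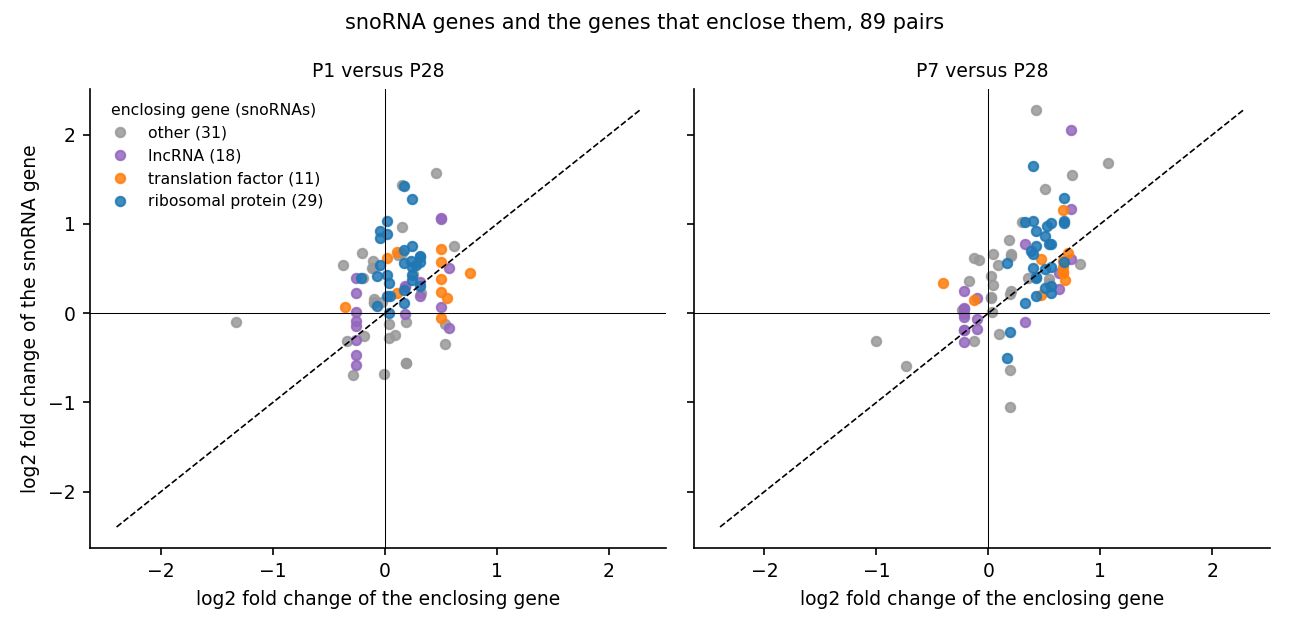
Log2 fold change of a snoRNA gene (vertical axis) against that of the gene that encloses it (horizontal axis) for 89 pairs, by kind of enclosing gene. The dashed line marks equal change. For P1 versus P28, 61 of 89 points lie above the line and those in ribosomal protein genes spread upward at host changes near 0, while for P7 versus P28 both axes are mostly positive, with 73 of 89 pairs of the same sign.

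snoRNAs that lie in 1 enclosing gene differed in level, and the part of gene length in this was not tested. Per kilobase, the highest and lowest in a gene differed by 22.4-fold in LOC100627892, where SNORD22 led at 556 CPM per kilobase, by 9.24-fold in LOC100624963 and by 7.43-fold in EIF4A2, and by 1.19-fold in RPS12. Of 12 names that more than 1 gene carried, 9 had levels per kilobase that differed by 1.60-fold to 4.80-fold between the highest and the lowest gene, and both genes named SNORD33 were within 1.04-fold. The widest spans were those of SNORD22, at 20.3-fold, and of SNORA63, the only name found in more than 1 enclosing gene: the 4 SNORA63 genes ran from 8.09 to 374 CPM per kilobase and their log2 fold changes from P1 to P28 from -0.05 to 1.07. In RPL7A, RPL13A, RPL4, RPS12 and GNL3, all snoRNA genes had positive fold changes from P1 to P28, 5, 4, 5, 3 and 3 genes. The same held for the 3 each in CNOT1, RABGGTB and LOC100624963, among others. It was 4 of 5 in EIF4A2, 3 of 4 in LOC100622481, 2 of 3 in LOC100620498 and 3 of 8 in LOC100627892. Over all 110 snoRNA genes 77.3% were positive.

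Related small nuclear RNAs were measured in the same libraries. The 6 genes of small Cajal body RNAs, which guide modification of spliceosomal RNAs, summed to 632 to 819 CPM at P1, 469 to 930 at P3, 570 to 733 at P7 and 910 to 1042 at P28. P28 overlapped with P3 and with no other age, and 1 of the 6 was called higher than at P1. Nearly all of this sum came from 1 gene (ENSSSCG00000038447), with a mean of 736 CPM, where the next highest had 10.3 CPM. The 30 small nuclear RNA genes summed to 1895 to 2247 CPM at P1, 1572 to 1860 at P3, 1083 to 2160 at P7 and 2110 to 2386 at P28, and from P1 to P28 4 were called higher and 2 lower. Here too 1 gene, of U2 RNA (ENSSSCG00000027405), made up nearly all of the sum, with a mean of 1863 CPM. The next highest had 4.77 CPM.

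Genes that make and use snoRNAs were given by lists. Of these, fibrillarin (FBL), the methyltransferase of box C/D particles, was the only one of the 5 C/D core genes analysed and had a log2 fold change from P1 to P28 of 0.07 ± 0.20. None of the 4 H/ACA core genes and none of the 35 known noncoding hosts was in the gene count table under its list name. From P1 to P28, 0 of 4 assembly factors, 0 of 1 Cajal body gene, 1 of 7 genes of the U3 processome, 0 of 6 genes of RNA polymerase I and nucleolar factors and 1 of 7 genes of snoRNA trimming were called. Over all genes tested the share called was 23.1%. The processome, which cuts the ribosomal RNA precursor, contributed MPHOSPH10 (0.59 ± 0.17, edgeR adjusted p = 0.0332) with PWP2 (0.49 ± 0.17) and RCL1 (0.39 ± 0.16) not called. The trimming gene was EXOSC5, a subunit of the RNA exosome (0.95 ± 0.26, adjusted p = 0.0287). In the other comparisons of these lists, PWP2 and TAF1C were called higher at P3, EXOSC5 higher at P7 and against the later ages, and from P7 to P28 RRP9 and TAF1C were called higher and RUVBL1, an assembly factor, lower.

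Cell type markers moved with age beside these results, and their part in them was not tested. The 7 cardiac muscle markers summed to 80843 to 92201 CPM at P1 and 78351 to 91841 at P28, with 1 called higher and 1 lower. The only fibroblast marker analysed, FBN1, was at 3591 to 4002 CPM at P1, 1885 to 2778 at P3, 3630 to 4200 at P7 and 954 to 1195 at P28. The 3 leukocyte markers summed to 126 to 176 CPM at P1, 130 to 214 at P3, 159 to 162 at P7 and 218 to 295 at P28, and 2 of them were called higher at P28. The 3 endothelial markers summed to 560 to 631 CPM at P1 and 576 to 629 at P28, with 1 called higher. No marker analysed was at 0. None of the listed smooth muscle, erythroid or proliferation markers was in the gene count table under its list name, so that their levels are unknown here.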

How the data were processed

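Read counts per gene, as deposited by the authors without normalization, came from 12 cd libraries made with the TruSeq Stranded Total RNA kit after rRNA removal. The study's methods give STAR 2.7.9a with Sscrofa10.2 for alignment and MultiQC 1.11 for quality control, under circular RNA quantification. Whether this table came from that alignment, and its counter and strand setting, are not given in the sources used here. Table positions overlapped Sscrofa11.1 for 4350 of 4354 shared symbols. Columns carry numbers 4 to 6 within an age and were placed by age only. One row without counts was left out.

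Genes with at least 10 counts in at least 3 libraries were tested with edgeR 4.0.16 in R 4.3.3 (quasi-likelihood, TMM, 4 ages in one fit, no covariates), with limma 3.58.1 and DESeq2 1.42.0 as alternatives. A call needed an unadjusted p of at most 0.05 with a log2 fold change beyond 0.5, and adjustment ran over all 5526 genes. Plots used Python 3.11.15 and matplotlib 3.10.9. The enclosing gene is the shortest table gene spanning a snoRNA gene, on either strand since the table gives none, and 5 whose RefSeq name differed were left out of the pairs. The row taken as RPL13A carries the symbol FLT3LG in the identifier table. Named genes are the 12 with the smallest p among those called from P1 to P28, 3 from each other comparison with P1, the 6 highest by mean CPM and all with an adjusted p under 0.05. Genes called that fall outside this rule were named after their values were seen. The genes, lists and rules were chosen with earlier results of these data known. Nucleotide sequences were not analysed here. The snoRNA genes of some enclosing genes are counted but not reported singly here. The labels do not say that the numbers 4 to 6 pair animals. P-values set a difference between ages against the spread between these libraries within an age, as estimated in the one fit.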

Additional observations from a re-analysis of the deposited data

How the results depend on the processing

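The fits that left out 1 library gave 4 to 16 called snoRNA genes between P1 and P3, 4 to 12 between P1 and P7, 3 to 22 between P1 and P28, 1 to 8 against the later ages, 15 to 31 between P7 and P28 and 2 to 13 over any age. A filter of at least 30 counts in at least 6 libraries left 2 between P1 and P7, 9 between P1 and P28, 2 against the later ages and 16 between P7 and P28, with fewer genes tested. Fitting only the ages compared left 3 between P1 and P3. Scaling by library totals alone gave 4 between P1 and P7 and 4 over any age, and the DESeq2 Wald test gave 3 against the later ages and 13 over any age. The cause was not tested. The P28 sum was 1.12 to 1.26 times that of P1 in the fits without 1 library. The number in the column names was not taken to pair the libraries: over 18 same-number pairs the correlation of deviations was -0.19 to 0.33, over 0.1 in 5 pairs, and 6 libraries correlated best with their own number. The 3 such pairs of P1 and P28 were all over 0.1, at 0.33, 0.14 and 0.16. With that number as a block, the counts were 6 between P1 and P3, 4 between P1 and P7, 14 between P1 and P28, 4 against the later ages, 27 between P7 and P28 and 8 over any age. For genes not called between P1 and P28, leaving out 1 library moved the log2 fold change between -0.0034 (without P1 library 6) and 0.3157 for the gene in RABGGTB (ENSSSCG00000019181), -0.0796 (without P1 library 6) and 0.4433 for a gene in a ribosomal protein gene, -0.1051 (without P28 library 6, and -0.0791 without P28 library 5) and 0.3446 for SNORD97, -0.6283 and 0.0795 (without P28 library 6) for the second SNORA73 gene, and -0.3154 and 0.1381 (without P28 library 4, and 0.0214 without P1 library 4) for SNORA63 in EIF4A2. With limma voom SNORD97 was at -0.0091. Of the 110 genes, 63 had a median under 30 counts.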
